A study of Mus musculus with 25 samples.

Results

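Leukocytes leave the blood in the gut wall by binding adhesion molecules on venules, and 9 genes of this step were followed across 5 mouse genotypes: Icam1, Vcam1, Madcam1, Sele, Selp, Ackr1, Itgae, Itgb7 and Itga4. The members were chosen by symbol, with earlier results of these data known, and all 9 matched a row among the 49452 gene identifiers of the deposited expression table. RNA from the distal colon of 25 mice was sequenced, 5 mice in each genotype, all 6 weeks old, on the C57BL/6 background and fed regular chow. In the Nemofl/fl controls Ikbkg, which encodes NEMO, the regulatory subunit of the kinase that activates NF-kB, is floxed. NEMOIEC-KO mice lack NEMO in intestinal epithelial cells, a model of colitis. The 3 double mutants carry the same epithelial deletion and a second label: NEMOIEC-KO Il12b-/- for loss of p40 (shared by IL-12 and IL-23), NEMOIEC-KO Il12a-/- for loss of p35 (of IL-12) or NEMOIEC-KO Il23a-/- for loss of p19 (of IL-23). The comparisons ask how each of these deficiencies affects inflammation of the mutant colon. The 5 replicates of a genotype are separate mice.

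The labels name neither the promoter that drives the Cre recombinase nor the mutant cytokine alleles, and do not say whether the Nemofl/fl mice carry Cre. Ikbkg, the targeted gene, averaged 9.08 ± 1.14 FPKM in Nemofl/fl (SD, n = 5) and lay between 2.93 and 5.85 FPKM in the 20 libraries of the other genotypes. Il12b RNA, in contrast, was higher in the libraries labelled Il12b-/- (0.79 to 1.29 FPKM) than in NEMOIEC-KO (0.0419 to 0.236), and Il12a RNA was higher in those labelled Il12a-/- (0.61 to 1.98 against 0.16 to 0.956). Whole-gene values cannot show whether part of a gene is deleted, so these groups are called by their labels throughout. Il23a RNA lay at 0.15 to 0.262 FPKM in libraries labelled Il23a-/- and at 0.0827 to 0.805 in NEMOIEC-KO. Expression is in FPKM, the sequenced fragments of a gene scaled to its length and to library size, so that levels of different genes can be compared. The FPKM summed to between 653776 and 744280 per library, and relative depth ranged from 0.697 to 1.149. Summed epithelial markers (12 genes) lay between 13700 and 20500 FPKM in every library. Smooth muscle markers (12 genes) spanned 1590 to 10000 FPKM, a range that overlapped between the genotypes. The labels also carry a library code of unstated meaning. Code K002000081 covers the 5 controls together with replicates 3 to 5 of NEMOIEC-KO, code K002000080 replicate 5 of the Il23a-/- group, and code K002000079 the remaining mutants. Xist and Y-linked RNA gave 0 females among the 5 controls, 1 of 5 in NEMOIEC-KO, 2 of 5 in each of the Il12b-/- and Il12a-/- groups, and 4 of 5 in the Il23a-/- group.

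As background, selectins (Sele, Selp) on activated endothelium catch rolling leukocytes, chemokines presented on the vessel wall then activate integrins on the leukocyte, and these integrins bind immunoglobulin-type ligands (Icam1, Vcam1, Madcam1) to arrest the cell. In the gut, the integrin made of Itga4 and Itgb7 binds Madcam1, the mucosal addressin of intestinal venules, and steers lymphocytes to this tissue. Itgb7 also pairs with Itgae, and that integrin holds T cells and dendritic cells at the epithelium through E-cadherin. Several of the vessel genes are textbook targets of NF-kB in endothelial cells.

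The 250 bases before the transcription start were read for short motifs in the RefSeq promoter table (GRCm38.p6), which held 7 of the 9 members and not Vcam1 or Itgae. The promoters of Icam1, Madcam1 and Itgb7 are printed because these genes had the 3 largest differences between NEMOIEC-KO and Nemofl/fl. Capitals mark matches, on either strand, to an NF-kB motif (GGG and CC with any 5 bases between). Each is written 5′ to 3′ in the direction of transcription, and ends before the RefSeq start, which for Icam1 and Itgb7 lies a short way from the end of the GENCODE gene.
Icam1, chr9:21015690-21015939 (plus strand): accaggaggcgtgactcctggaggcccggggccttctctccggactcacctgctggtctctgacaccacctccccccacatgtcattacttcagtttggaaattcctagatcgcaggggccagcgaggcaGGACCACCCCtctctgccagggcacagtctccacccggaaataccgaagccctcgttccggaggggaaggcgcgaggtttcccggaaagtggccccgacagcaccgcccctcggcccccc
Madcam1, chr10:79664309-79664558 (plus strand): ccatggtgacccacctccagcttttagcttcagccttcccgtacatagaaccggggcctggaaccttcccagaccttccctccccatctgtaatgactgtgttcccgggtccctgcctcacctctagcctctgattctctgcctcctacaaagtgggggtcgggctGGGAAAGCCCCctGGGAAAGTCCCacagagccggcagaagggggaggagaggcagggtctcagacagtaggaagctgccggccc
Itgb7, chr15:102231936-102232185 (minus strand): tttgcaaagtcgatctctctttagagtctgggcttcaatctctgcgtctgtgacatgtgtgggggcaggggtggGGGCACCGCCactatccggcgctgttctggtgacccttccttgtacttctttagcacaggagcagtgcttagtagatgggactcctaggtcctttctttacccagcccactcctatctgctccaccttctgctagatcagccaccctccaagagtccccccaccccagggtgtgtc

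The NF-kB motif was found in 5 of the 7 promoters (Icam1, Madcam1, Sele, Selp and Itgb7) and in 45.8% of the 32851 promoters in the table, so a match by itself is common. In Madcam1, 5 matches on both strands overlap within 2 blocks, from 84 to 74 and from 71 to 61 bases before the start. Icam1 has its match 120 to 111 bases before the start, and Itgb7 has its match at 176 to 167. An AP-1 motif (TGANTCA) was found in Sele and Selp (6.75% of promoters), and the interferon-stimulated response element (GAAA and GAAA with any 2 bases between) in 0 of 7 (2.98% of promoters). These matches describe the letters of the window and are not measured binding sites. A stretch that departs from the letters searched was not counted or marked, whether or not NF-kB can bind it.

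The member genes lie on 7 chromosomes of GRCm38, by the GENCODE annotation, and all are protein-coding. Icam1 spans 21015985 to 21028817 on chromosome 9, Vcam1 116109949 to 116129688 on chromosome 3, and Madcam1 79664559 to 79668537 on chromosome 10. The selectin genes are neighbours on chromosome 1, Sele at 164048234 to 164057677 and Selp at 164115264 to 164150026, and Ackr1 lies on the same chromosome at 173331886 to 173333750. Itgae spans 73090583 to 73147446 on chromosome 11, Itgb7 102215995 to 102231944 on chromosome 15, and Itga4 79255426 to 79333123 on chromosome 2. Exons of Ackr1 share 361 bases with Cadm3 on the same strand, and exons of Itga4 share 1124 bases with Cerkl on the opposite strand. Fragments in the bases shared by Ackr1 and Cadm3 cannot be told apart by strand, so the Ackr1 value is uncertain however strand was handled. Whether the authors' FPKM used strand is not given in the sources used here, so the value of Itga4 is uncertain to that extent. Icam1, Vcam1 and Selp share 61 to 511 exonic bases with noncoding genes on the opposite strand.

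In the control colon, Ackr1 was the most abundant member, at 5.49 ± 0.946 FPKM (SD, n = 5), and its 5 libraries lay above those of Vcam1 (2.84 ± 0.584), the next in order. Itgb7, Icam1 and Madcam1 followed at 1.6, 1.57 and 1.45 FPKM, then Itga4 (0.822), Selp (0.718) and Itgae (0.447), and the libraries of each of these neighbours overlapped. Sele, with a mean of 0.00612 FPKM and 3 of 5 libraries listed at 0, was lowest. In NEMOIEC-KO the order differed: Icam1 was highest (6.68), followed by Madcam1 (5.23), Vcam1 (5.19), Itgb7 (5.05) and Ackr1 (4.06), again with overlapping libraries from each gene to the next down to Itga4. Across the 25 libraries the member levels spanned 0 to 14.5 FPKM, and 8 of the 9 members reached the filter of 0.2 FPKM in all 25. Sele reached it in 0 libraries and was not tested.

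**Figure D1:**
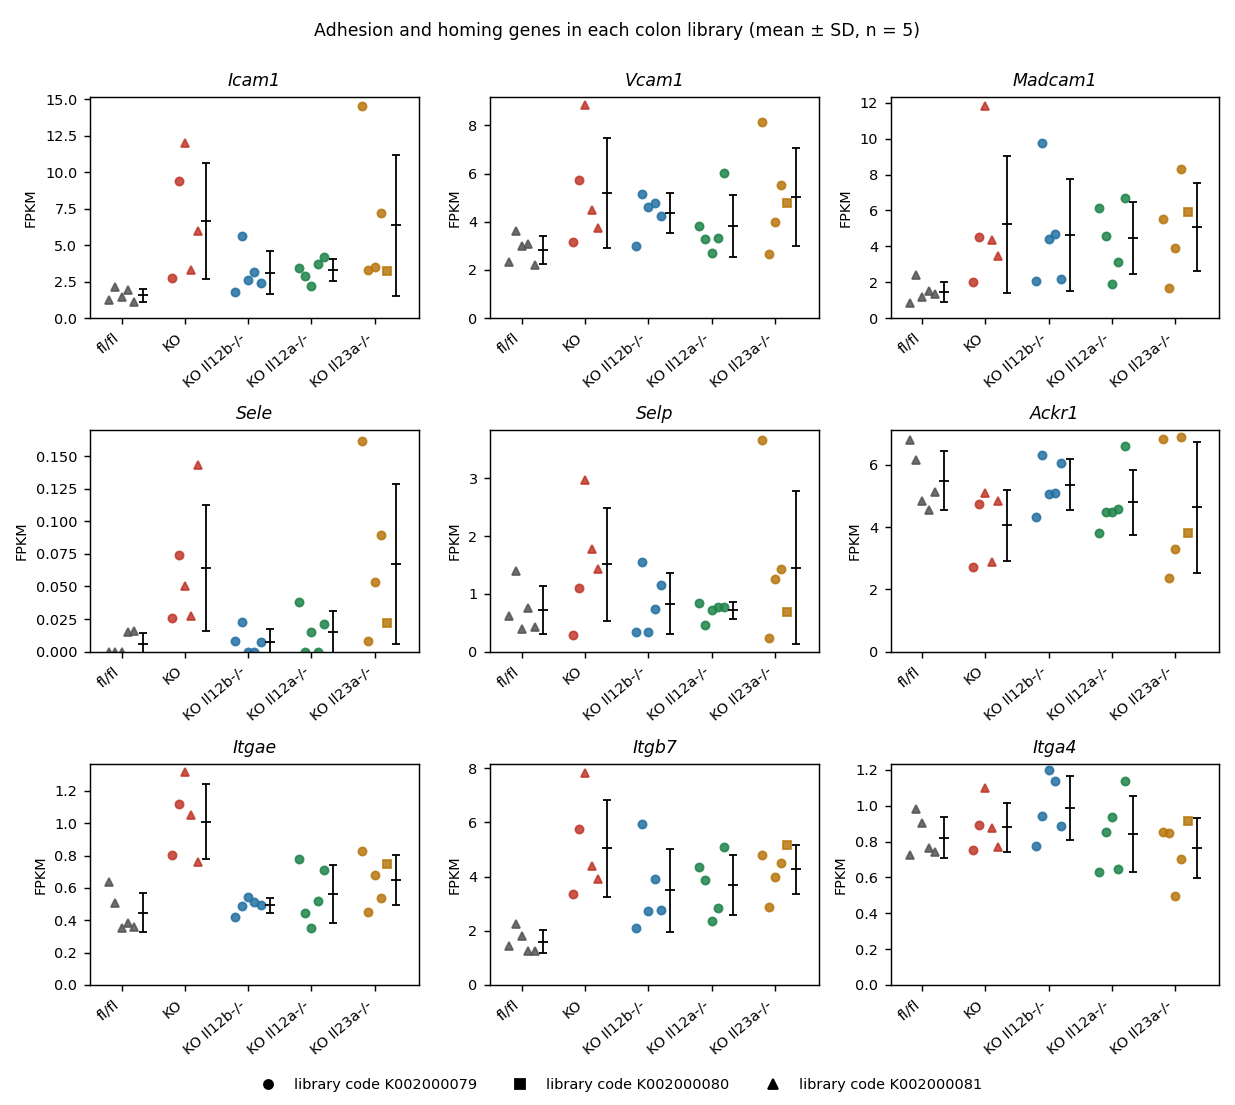
FPKM of the 9 genes in each of the 25 colon libraries (points, shaped by the library code in the labels), by genotype, with the mean ± SD of 5 libraries beside each group. Each gene has its own axis, starting at 0. Icam1, Itgae and Itgb7 are higher in every NEMOIEC-KO library than in any Nemofl/fl library, whereas Itga4 stays between 0.497 and 1.2 FPKM throughout.

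Loss of NEMO in the epithelium was accompanied by more RNA, in distal colon tissue, of 3 integrin ligands and of the Itgae and Itgb7 chains. Icam1, Vcam1, Madcam1, Itgae and Itgb7 were higher in NEMOIEC-KO than in Nemofl/fl, and Selp, Ackr1 and Itga4 did not pass the test. The count was 5 of 8 tested members, all 5 higher. Because the members were chosen with earlier results of these data known, this count is a description and no test of the list. Of all 19266 genes tested, 32.2% passed, 11.9% higher and 20.3% lower. The share of calls that were higher was 36.9%, and 48.5% after median-of-ratios scaling of the libraries, under which the members' directions were the same. The median log2 fold change was 0.69 over the 8 members and -0.08 over all genes. In bulk tissue, a change in RNA per cell and a change in the number of cells that carry the RNA cannot be told apart.

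Icam1 is the ligand of the leukocyte integrins built on Itgb2 and is made by endothelium, epithelium and leukocytes. It stood at 1.27, 2.13, 1.45, 1.92 and 1.07 FPKM in the Nemofl/fl libraries and at 2.73, 9.38, 12.0, 3.31 and 5.96 FPKM in NEMOIEC-KO. Every NEMOIEC-KO library was above every control, which was also the case for 8.73% of all genes. Replicates 2 and 3 were the highest. Icam1 was higher by a log2 fold change, on log2(FPKM + 0.5), of 1.63 ± 0.38 (SE; adjusted p = 0.00274, limma), and 1.73 (adjusted p = 0.0117) within library code K002000081. With the smooth muscle score as a covariate it was 1.12, with an adjusted p of 0.0589.

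Vcam1, the ligand of the Itga4 integrins, differed less. Its control libraries read 2.31, 3.61, 3.01, 3.08 and 2.21 FPKM, and the NEMOIEC-KO libraries 3.14, 5.74, 8.86, 4.5 and 3.73 FPKM. The groups overlapped through the lowest NEMOIEC-KO library. This amounted to a log2 fold change of 0.70 ± 0.25 (SE; adjusted p = 0.0363, limma), and this call was close to the threshold: it was lost under 10 of 24 alternatives. Within library code K002000081 the difference was 0.82 (adjusted p = 0.0541), and with the smooth muscle score as a covariate 0.41 (adjusted p = 0.34). It was also lost without any 1 of control replicates 1, 3, 4 and 5 (adjusted p from 0.0513 to 0.0818) or of NEMOIEC-KO replicates 2 (0.0804) and 3 (0.50, adjusted p = 0.133).

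Madcam1 was measured at 0.817, 2.38, 1.2, 1.51 and 1.34 FPKM in Nemofl/fl and at 2.01, 4.51, 11.8, 4.35 and 3.46 FPKM in NEMOIEC-KO. Replicate 3 lay far above the other libraries of that group, and the lowest NEMOIEC-KO library lay below the highest control. Madcam1 was higher by a log2 fold change of 1.39 ± 0.43 (SE; adjusted p = 0.017, limma). It was 1.71 (adjusted p = 0.0156) within library code K002000081, 1.06 (adjusted p = 0.0664) without replicate 3, and 0.78 (adjusted p = 0.248) with the smooth muscle score as a covariate.

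The selectins gave no call. Selp, which endothelial cells and platelets store and bring to the surface on activation, was 0.624, 1.4, 0.384, 0.759 and 0.422 FPKM in Nemofl/fl and 0.287, 1.1, 2.97, 1.77 and 1.43 FPKM in NEMOIEC-KO. Both the lowest and the highest of these 10 values came from NEMOIEC-KO. The log2 fold change was 0.63 with a 95% interval of -0.17 to 1.42 (adjusted p = 0.212, limma), and it was 1.08 (adjusted p = 0.0291) within library code K002000081, a set without NEMOIEC-KO replicates 1 and 2, and 0.93 (adjusted p = 0.0395) with the endothelium score as a covariate. Sele, which is made by activated endothelium, was listed at 0 in 3 control libraries and at 0.015 and 0.0156 FPKM in the others. Its NEMOIEC-KO values were 0.0258, 0.0741, 0.0507, 0.0271 and 0.143 FPKM, each above every control, as for 8.73% of the genes tested. All lie below the filter of 0.2 FPKM, where very few fragments may set the order of the libraries. The difference was not tested in the filtered fit. With no filter, limma gave a log2 fold change of 0.15 (adjusted p = 0.0601).

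Ackr1, an atypical receptor that binds many chemokines on venular endothelium, went the other way without passing the test. Its values were 6.79, 6.14, 4.85, 4.54 and 5.12 FPKM in Nemofl/fl and 2.73, 4.74, 5.09, 2.88 and 4.84 FPKM in NEMOIEC-KO. The 2 groups overlapped, and the log2 fold change was -0.42 with a 95% interval of -0.88 to 0.04 (adjusted p = 0.154, limma). Cadm3, which shares exonic bases with it, was lower in NEMOIEC-KO (2.81 ± 0.712 FPKM) than in Nemofl/fl (5.03 ± 1.08), with a log2 fold change of -0.75 (adjusted p = 0.0265, limma). What part of the Ackr1 value comes from shared bases was not tested.

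Among the integrin chains, Itgb7 had the largest log2 fold change. It read 1.44, 2.25, 1.8, 1.24 and 1.25 FPKM in Nemofl/fl and 3.37, 5.74, 7.84, 4.38 and 3.9 FPKM in NEMOIEC-KO. The groups did not overlap, and the log2 fold change was 1.37 ± 0.24 (SE; adjusted p = 0.000305, limma). This call held under the 24 alternatives run, with adjusted p from 7.07e-05 to 0.00758 and a log2 fold change from 1.03 to 1.57.

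Itgae, the partner of Itgb7 in the E-cadherin receptor, was 0.637, 0.504, 0.35, 0.386 and 0.36 FPKM in Nemofl/fl and 0.801, 1.12, 1.32, 1.05 and 0.758 FPKM in NEMOIEC-KO. These groups did not overlap either. Itgae was higher by a log2 fold change of 0.67 ± 0.13 (SE; adjusted p = 0.000599, limma), a value that understates the ratio of FPKM at these low levels because 0.5 was added. Itga4, the partner of Itgb7 in the Madcam1 receptor, did not differ beyond its spread. Its libraries read 0.725, 0.983, 0.901, 0.762 and 0.741 FPKM in Nemofl/fl and 0.755, 0.892, 1.1, 0.875 and 0.77 in NEMOIEC-KO, with a log2 fold change of 0.06 and a 95% interval of -0.19 to 0.30 (adjusted p = 0.731, limma).

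**Figure D2:**
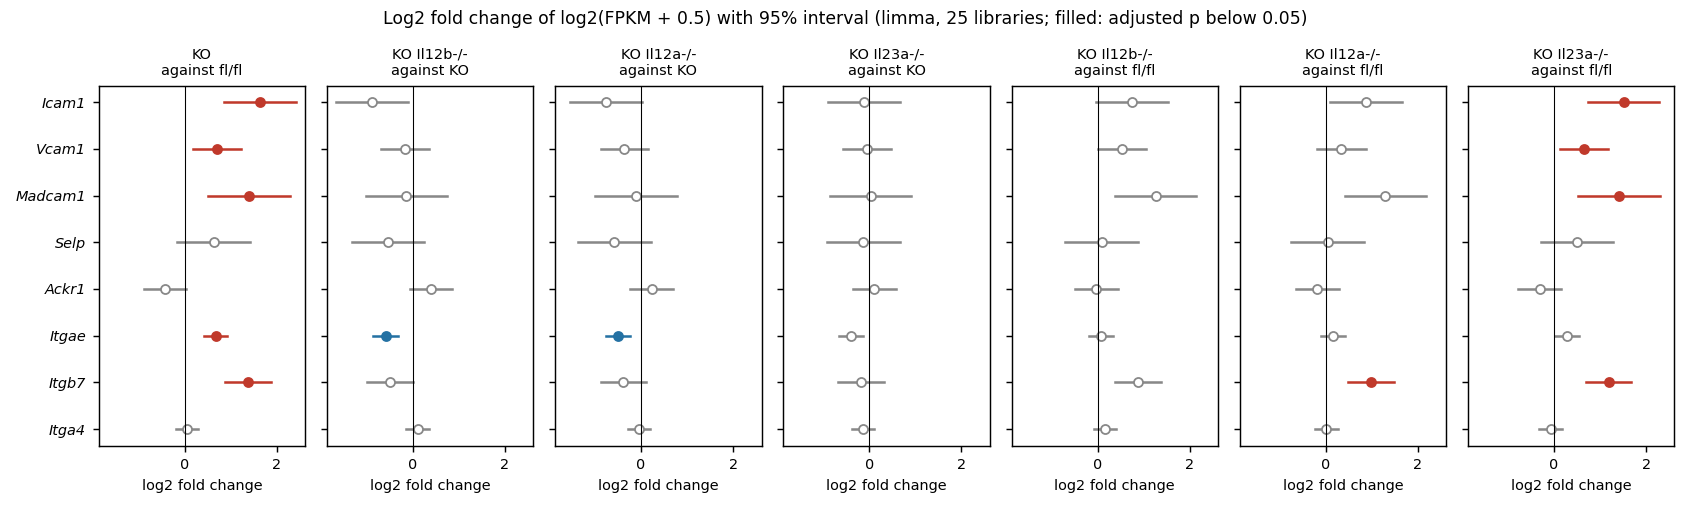
Log2 fold change of the 8 tested genes in 7 comparisons (points, with 95% intervals from limma over 25 libraries; filled where adjusted p is below 0.05, red higher and blue lower). Icam1, Vcam1, Madcam1, Itgae and Itgb7 are filled for KO against fl/fl, Itgae alone for the Il12b-/- and Il12a-/- groups against KO, and no gene for the Il23a-/- group against KO.

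Itga4 RNA was lower relative to its partner Itgb7 in NEMOIEC-KO than in Nemofl/fl. Itga4 itself differed by a log2 fold change of 0.06 and Itgb7 by 1.37, so this ratio restates the Itgb7 difference. The FPKM ratio of Itga4 to Itgb7 was 0.503, 0.437, 0.501, 0.614 and 0.594 in Nemofl/fl and 0.224, 0.155, 0.14, 0.2 and 0.198 in NEMOIEC-KO, with no overlap. On the log2(FPKM + 0.5) scale the ratio differed by -1.31 (exact permutation test, two-sided, p = 0.00794, the smallest that 5 libraries against 5 can give; adjusted over 44 such tests, 0.0499). Itgae to Itgb7 averaged 0.292 ± 0.0963 in Nemofl/fl and 0.207 ± 0.0309 in NEMOIEC-KO (SD, n = 5). In FPKM these ratios overlapped. Their log2 difference was -0.70 (exact permutation p = 0.00794, adjusted 0.0499), and -0.55 with a pseudocount of 0.1 (adjusted p = 0.161), under which it did not pass. In the double mutants the mean ratio of Itga4 to Itgb7 was 0.315 ± 0.104 in the libraries labelled Il12b-/-, 0.243 ± 0.0928 in those labelled Il12a-/- and 0.186 ± 0.0642 in those labelled Il23a-/-. Against NEMOIEC-KO the largest of these differences, in the Il12b-/- group, was 0.60 on the log2 scale (exact permutation p = 0.0476, adjusted 0.161), and none passed. Leaving out any 1 control, or NEMOIEC-KO replicate 2, 3 or 5, left 0 of the 44 relative levels past the threshold, against 7 with all libraries. Those 7 all had the smallest p possible for 5 against 5 and the same adjusted p of 0.0499, so they passed together and are not separate calls.

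**Figure D3:**
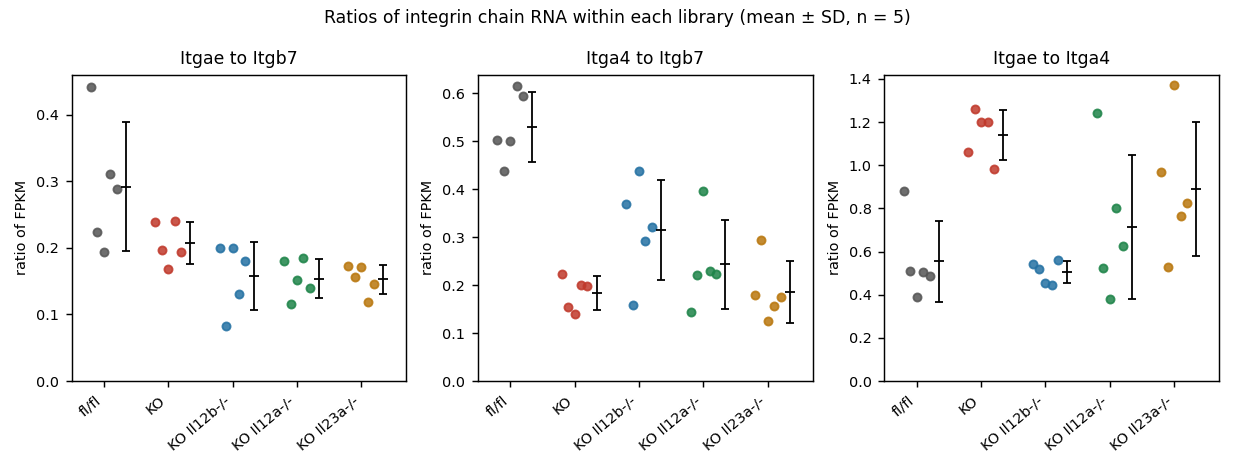
Ratios of FPKM between the integrin chains in each library (points) by genotype, with the mean ± SD of 5 libraries; axes start at 0. Itga4 to Itgb7 lies at 0.437 to 0.614 in fl/fl and at 0.14 to 0.224 in KO, while Itgae to Itga4 averages 0.554 in fl/fl and 1.14 in KO.

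T cell and myeloid markers were higher in NEMOIEC-KO as well. Of 15 T cell markers (Cd3e, Lck, Cd8a and others), 15 were higher in NEMOIEC-KO than in Nemofl/fl, and their summed level was 30.1 to 83.0 FPKM against 7.59 to 17.0. Relative to the mean log2 level of these markers, Itgb7 differed by 0.03 between the groups (exact permutation p = 0.762). Itga4 was lower relative to T cell markers by a log2 difference of -1.28 and Itgae by -0.67 (exact permutation p = 0.00794 and adjusted p = 0.0499 for both, n = 5 and 5). Itga4 itself differed by 0.06 and Itgae by 0.67, while the mean log2 level of the T cell markers was 1.44 in NEMOIEC-KO and 0.11 in Nemofl/fl. The lower relative levels thus restate the higher T cell markers and do not measure RNA per T cell. Neutrophil markers were higher in 8 of 10 cases (15.7 to 612.0 FPKM in sum against 1.72 to 15.8). Macrophage markers were higher in 7 of 10, with 1 lower (317.0 to 750.0 against 231.0 to 283.0). Plasma cell markers were higher in 7 of 8 cases (2670 to 10900 FPKM in sum against 806 to 2540), dendritic cell markers in 4 of 7 and mast cell markers in 4 of 7, with 1 lower. B cell markers were higher in 0 of 8 cases. What part these cells have in the differences of the members was not tested.

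Endothelial markers were not higher in NEMOIEC-KO. Of 15 endothelial markers (Pecam1, Cdh5, Kdr and others), 0 were higher and 4 lower in NEMOIEC-KO, with sums of 85.7 to 131.0 FPKM against 81.2 to 146.0 in Nemofl/fl. Relative to the mean of these markers, Icam1 was higher by 1.82, Madcam1 by 1.58 and Vcam1 by 0.89 on the log2 scale, each with an exact permutation p of 0.00794 and an adjusted p of 0.0499. Selp differed by 0.81 (exact permutation p = 0.0397, adjusted 0.159), Sele by 0.34 (exact permutation p = 0.0635, adjusted 0.2) and Ackr1 by -0.23 (exact permutation p = 0.444). The mean log2 level of the endothelial markers was 2.31 in NEMOIEC-KO and 2.50 in Nemofl/fl. The relative levels of Icam1, Madcam1 and Vcam1 thus largely restate their log2 fold changes of 1.63, 1.39 and 0.70. They do not measure RNA per endothelial cell, and the part of vessels in these differences was not tested. In the same comparison 8 of 12 smooth muscle markers were lower in NEMOIEC-KO and 0 higher. No marker of the endothelial, T cell, neutrophil or macrophage lists was at 0 in all libraries of a group.

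**Figure D4:**
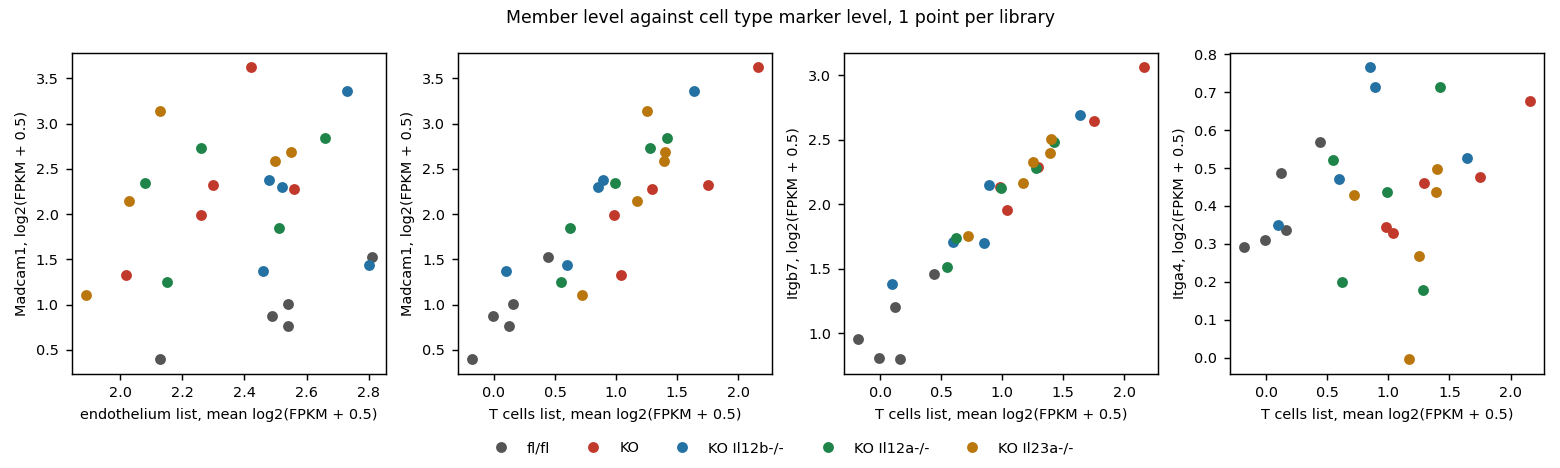
Log2(FPKM + 0.5) of Madcam1 against the mean of 15 endothelial and of 15 T cell markers, and of Itgb7 and Itga4 against the T cell markers; each point is 1 of 25 libraries, coloured by genotype. Itgb7 follows the T cell markers closely across genotypes, with a correlation of 0.94 within genotypes, and Madcam1 follows them more closely (0.90) than it follows the endothelial markers (0.51).

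Itgae was lower in the libraries labelled Il12b-/- than in NEMOIEC-KO. They read 0.42, 0.488, 0.545, 0.511 and 0.497 FPKM, all below the NEMOIEC-KO range of 0.758 to 1.32, as were 4.10% of all genes. The log2 fold change was -0.59 ± 0.13 (SE; adjusted p = 0.00249, limma). Itgae was the 1 member of 8 tested that passed in this comparison, where 19.9% of all genes passed and 5.94% were lower. Of all calls, 70.2% were higher in the double mutant, and 46.4% after median-of-ratios scaling. The double mutants share their library code with 2 of the 5 NEMOIEC-KO libraries: with the code as a covariate the Itgae difference was -0.55 (adjusted p = 0.054), and within code K002000079, 5 libraries against 2, also -0.55 (adjusted p = 0.0767).

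The other members did not pass against NEMOIEC-KO in the Il12b-/- group. Icam1 read 1.76, 5.62, 2.59, 3.16 and 2.42 FPKM there, a log2 fold change of -0.89 (95% interval -1.66 to -0.11, adjusted p = 0.0973, limma). It passed when the endothelium score was a covariate (-1.21, adjusted p = 0.0351), without NEMOIEC-KO replicate 1 (-1.13, 0.0423) and without replicate 2 of the Il12b-/- group (-1.10, 0.0427). Itgb7, at 2.1, 5.95, 2.74, 3.93 and 2.76 FPKM, differed by -0.49 (95% interval -0.99 to 0.00, adjusted p = 0.148, limma), and passed without replicate 2 of that group (-0.68, adjusted p = 0.0349) and with the endothelium score (-0.73, adjusted p = 0.0373). Madcam1, at 2.09, 9.78, 4.43, 4.71 and 2.2 FPKM, had a log2 fold change of -0.14 and a 95% interval from -1.02 to 0.75, too wide to show equal levels. Vcam1, at 2.98, 5.14, 4.63, 4.79 and 4.23 FPKM, differed by -0.17 (95% interval -0.69 to 0.35), and Selp, at 0.342, 1.55, 0.34, 0.735 and 1.16 FPKM, by -0.54 (-1.33 to 0.25). Of the T cell markers 6 of 15 were lower and 0 higher in this comparison, and relative to them Itgae differed by 0.04 (exact permutation p = 0.913). That value depends on the added 0.5, which shrinks the log2 difference of Itgae at means of 0.492 and 1.01 FPKM. The mean log2 level of the T cell markers was 0.81 in the Il12b-/- group and 1.44 in NEMOIEC-KO. What part T cells have in the Itgae difference was not tested.

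Itgae was also the member that passed in the libraries labelled Il12a-/-. It read 0.782, 0.446, 0.355, 0.521 and 0.71 FPKM there, and the highest of these lay above the lowest NEMOIEC-KO library. The log2 fold change was -0.51 ± 0.13 (SE; adjusted p = 0.0168, limma), the 1 call among 8 members where 9.61% of all genes passed and 4.00% were lower. Higher genes made up 58.3% of those calls, and 37.5% after median-of-ratios scaling. The Itgae call was lost with the library code as a covariate (-0.47, adjusted p = 0.16), within code K002000079 (-0.47, adjusted p = 0.209), with the smooth muscle score as a covariate (-0.32, adjusted p = 0.182), and without NEMOIEC-KO replicate 3 (-0.44, adjusted p = 0.0576), and without replicate 2 (-0.47, adjusted p = 0.0566) or replicate 3 (-0.44, adjusted p = 0.0581) of the Il12a-/- group. Icam1, at 3.45, 2.85, 2.23, 3.71 and 4.18 FPKM, had a log2 fold change of -0.76 (95% interval -1.54 to 0.02, adjusted p = 0.183, limma). Madcam1 had one of -0.10 (95% interval -0.99 to 0.78) and Vcam1 of -0.36 (-0.88 to 0.16). Madcam1 read 6.14, 4.57, 1.88, 3.11 and 6.69 FPKM, and Vcam1 3.82, 3.29, 2.69, 3.31 and 6.03, so that both overlapped NEMOIEC-KO. Of the T cell markers 1 of 15 was lower, and relative to them Itgae differed by -0.04 (exact permutation p = 0.841). Here too the added 0.5 shrinks the Itgae difference, at means of 0.563 and 1.01 FPKM, and the part of T cells was not tested.

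No member passed between the libraries labelled Il23a-/- and NEMOIEC-KO. Icam1 read 14.5, 3.3, 3.51, 7.21 and 3.21 FPKM, Madcam1 5.52, 1.66, 3.92, 8.32 and 5.94, and Itgb7 4.78, 2.87, 3.98, 4.51 and 5.18. Replicate 1 had the highest value of that group for Icam1, Vcam1, Sele, Selp and Itgae. Of 8 members 0 passed (limma), where 0.0830% of all genes passed. Itgae was the 1 member with an unadjusted p below 0.05, as were 10.5% of all genes, with 0.827, 0.449, 0.68, 0.539 and 0.751 FPKM and a log2 fold change of -0.39 (95% interval -0.65 to -0.13, adjusted p = 0.212). The intervals were -0.89 to 0.66 for Icam1, -0.86 to 0.91 for Madcam1 and -0.68 to 0.31 for Itgb7, and that for Vcam1, at 8.16, 2.67, 4.0, 5.51 and 4.79 FPKM, was -0.56 to 0.48. Each of these intervals spans 0, and none is narrow enough to show equal levels. Of the T cell, endothelial and neutrophil markers 0 passed in this comparison.

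Against Nemofl/fl, the number of members past the test was 4, 1 and 0 in the Il23a-/-, Il12a-/- and Il12b-/- groups. The adjusted p depends on how many of all genes differ, so these counts do not rank the size of the member differences. Madcam1 differed by 1.42, 1.29 and 1.26 in that order, with an unadjusted p of 0.003, 0.00618 and 0.00745 (limma). The Il23a-/- group had 4 of 8 members higher: Icam1 by 1.51 (adjusted p = 0.00669), Madcam1 by 1.42 (0.0184), Itgb7 by 1.19 (0.00185) and Vcam1 by 0.66 (0.0498), where 29.5% of all genes passed (limma) and 12.6% were higher. Icam1 and Itgb7 did not overlap the controls, as 8.47% of all genes lay wholly above them. The controls were all male and share no library code with that group, so that no value within 1 code can be given for this pair. Each of the 4 calls was lost with sex as a covariate (adjusted p from 0.0536 for Itgb7 to 0.482 for Vcam1), with the library code (0.0641 to 0.181) and with the smooth muscle score (0.0895 to 0.559). The Madcam1 call was lost without replicate 4 of that group (1.22, adjusted p = 0.06), and the Vcam1 call under 16 of 23 alternatives, among them leaving out any 1 of control replicates 1, 3, 4 and 5 or of replicates 1, 3, 4 and 5 of the Il23a-/- group (adjusted p from 0.0623 to 0.154). In the Il12a-/- group Itgb7 passed, at 4.35, 3.86, 2.35, 2.83 and 5.09 FPKM and by 0.98 (adjusted p = 0.0411, limma), where 1.34% of all genes passed and 5.19% lay wholly above the controls, as it did, but it was lost under 12 of 23 alternatives. These include leaving out any 1 of control replicates 1, 3, 4 and 5 or of replicates 1, 2, 4 and 5 of the Il12a-/- group (adjusted p from 0.0519 to 0.103). In the Il12b-/- group 0 members passed (limma) and 0.369% of all genes did. There 3 members had an unadjusted p below 0.05, as did 14.1% of all genes: Madcam1 by 1.26 (adjusted p = 0.193), Itgb7 by 0.88 (0.112) and Vcam1 by 0.54 (0.342). In the Il12a-/- group 3 members had such a p, as did 3812 of the 19266 genes. Besides Itgb7 these were Madcam1, by 1.29 (adjusted p = 0.109), and Icam1, by 0.87 (0.203), which also lay wholly above the controls. These comparisons share the Nemofl/fl libraries. Itgae, which passed in NEMOIEC-KO, differed from Nemofl/fl by 0.07 (adjusted p = 0.849), 0.16 (0.514) and 0.28 (0.0975) in the Il12b-/-, Il12a-/- and Il23a-/- groups. Without replicate 2 of the Il23a-/- group its difference there passed (0.34, adjusted p = 0.0485), and with the endothelium score both Itgae (0.37, adjusted p = 0.0413) and Selp (0.95, adjusted p = 0.0497) did.

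Between the double mutants no member passed (limma): 0 of 8 for Il12a-/- against Il12b-/- (0.410% of all genes passed), for Il23a-/- against Il12b-/- (5.11%) and for Il23a-/- against Il12a-/- (1.16%), with 0 of 8 at an unadjusted p below 0.05 in each (against 6.49%, 25.8% and 20.0% of all genes). The largest of these differences was Icam1, higher by 0.77 in the Il23a-/- than in the Il12b-/- group (95% interval -0.01 to 1.55, adjusted p = 0.199). Ackr1 passed in none of the 10 comparisons (limma), with means of 5.36 ± 0.813 FPKM in the Il12b-/-, 4.79 ± 1.05 in the Il12a-/- and 4.63 ± 2.1 in the Il23a-/- group (SD, n = 5). Itga4 averaged 0.989 ± 0.179, 0.841 ± 0.21 and 0.763 ± 0.167 FPKM in the same order. Selp averaged 0.826 ± 0.529, 0.714 ± 0.151 and 1.46 ± 1.32 FPKM, and its highest value, 3.66, came from replicate 1 of the Il23a-/- group. Sele was listed at 0 in 2 libraries labelled Il12b-/- and 2 labelled Il12a-/-, with a highest value of 0.038 FPKM in those groups. It lay between 0.00813 and 0.162 FPKM in the libraries labelled Il23a-/-.

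The members varied together among mice of the same genotype. After centring log2(FPKM + 0.5) within genotypes, all 28 pairs of the 8 tested members had positive correlations over the 25 libraries, from 0.12 (Selp with Itga4) to 0.89 (Madcam1 with Itgb7), with a median of 0.60. Icam1 and Vcam1 correlated at 0.83. With the marker lists, Itgb7 correlated most with T cells (0.94), as did Madcam1 (0.90), Vcam1 with macrophages (0.84), and Icam1 and Selp with neutrophils (0.84 and 0.80). Some of these were near ties: Vcam1 correlated at 0.83 with T cells and Icam1 at 0.82 with macrophages. Itgae and Ackr1 correlated most with macrophages (0.72 and 0.73), and Itga4 with dendritic cells and fibroblasts (0.57 for both). Epithelial markers correlated negatively with all 8, from -0.12 (Itgae) to -0.77 (Icam1), and smooth muscle with 7 of the 8, from -0.42 (Ackr1) to -0.67 (Itgae). These are descriptions, with no test: the values of 1 library share its depth and its tissue composition.

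**Figure D5:**
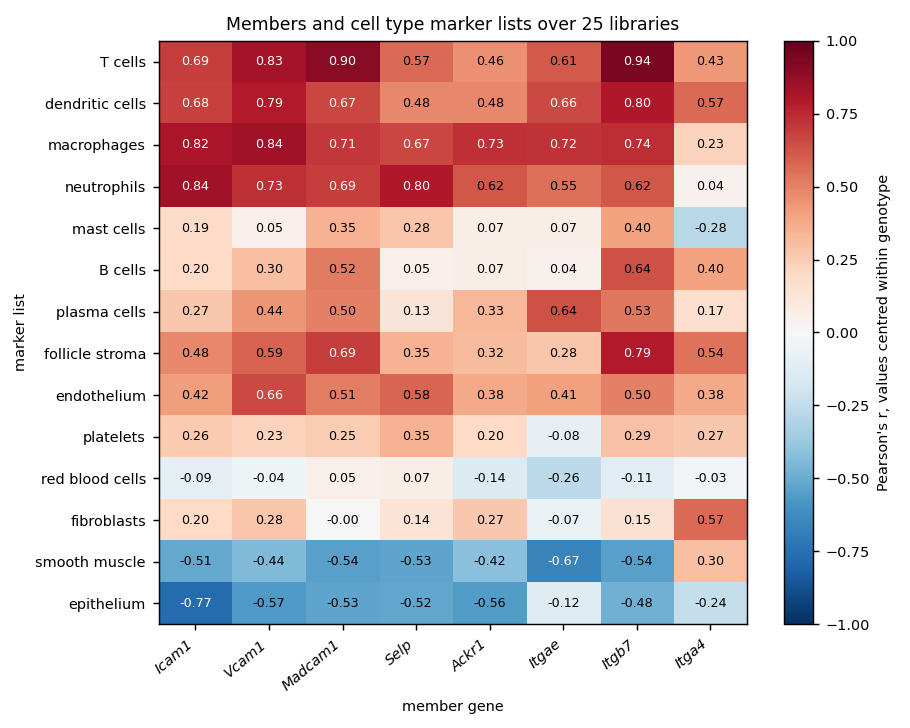
Pearson correlation of each tested gene (columns) with the mean level of each of 14 cell type marker lists (rows) over 25 libraries, with values centred within genotype; red is positive, blue negative. Itgb7 with T cells (0.94) is the highest value, the epithelium row is negative for all 8 genes, and the smooth muscle row is negative except for Itga4 (0.30).

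The genes whose within-genotype pattern was most like each member were taken from all tested genes averaging at least 1 FPKM, 3 for each member, by the same correlation over 25 libraries. Those nearest to Madcam1 were Trbc1 (0.94), Zap70 (0.92) and Gimap4 (0.90), of which the first encodes a T cell receptor constant region and the second a kinase of that receptor. Itgb7 was nearest to Laptm5, Lcp1 and Arhgap9 (0.95 each). Vcam1 was nearest to Plek (0.95), the lysozyme gene Lyz2 (0.93) and Cybb (0.91), a subunit of the phagocyte oxidase, and Icam1 to Slc15a3 (0.95), Csf2rb2 (0.94) and Slfn1 (0.94). Itgae was nearest to the macrophage gene Mpeg1 (0.84), Gpr65 (0.81) and Lair1 (0.81). Selp was nearest to Nrd1 (0.89), Clec7a (0.83) and Nup43 (0.83), Ackr1 to Il1rl1, Chek1 and Ccr1 (0.83 each), and Itga4 to Parp8 (0.80), Pcdh7 (0.79) and Adcy7 (0.79).

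Other genes of leukocyte recruitment were counted in 4 lists of 60 genes in all, of which 58 were tested. Between NEMOIEC-KO and Nemofl/fl 22 of them were higher and 6 lower (limma, as in all pathway values), where 11.9% of all genes were higher and 20.3% lower. These lists too were chosen with earlier results of these data known, so the counts are a description. Of 12 tested leukocyte integrins and their activators 7 were higher and 0 lower. Both chains of the main Icam1 receptor were among them: Itgal was 4.05 ± 2.54 FPKM against 0.754 ± 0.222 (log2 fold change 1.69, adjusted p = 0.00116), and Itgb2 was 7.37 ± 4.78 against 1.93 ± 0.337 (1.49, adjusted p = 0.00475). Of 11 tested selectin ligands and enzymes for them 1 was higher, Selplg, the main ligand of P-selectin (10.5 ± 4.9 against 3.08 ± 0.695 FPKM, 1.52, adjusted p = 0.000513). The 1 lower was Cd34 (11.0 ± 1.32 against 22.3 ± 4.2, -0.97, adjusted p = 0.00137), a sialomucin of vessels and stroma. Of 12 junctional and other endothelial adhesion genes 2 were higher and 3 lower. Cdh1, the epithelial cadherin that Itgae and Itgb7 bind, was higher by 0.29 (295.0 ± 12.0 against 243.0 ± 38.1 FPKM, adjusted p = 0.0199), and Jam2 and Jam3 were lower by -0.79 each (adjusted p = 0.023 and 0.0128). Within library code K002000081 Selplg (1.62, adjusted p = 0.00715), Cd34 (-0.99, 0.00507), Itgal (1.69, 0.00947) and Itgb2 (adjusted p = 0.0176) passed, and Cdh1 (0.26, 0.142), Jam2 (-0.75, 0.104) and Jam3 (-0.73, 0.0811) did not. With the smooth muscle score as a covariate Itgb2 (0.85, adjusted p = 0.103), Cdh1 (0.16, 0.268), Jam2 (-0.21, 0.442) and Jam3 (-0.29, 0.253) did not pass.

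Homing chemokines and their receptors, the longest of the lists, gave 12 higher and 2 lower of 23. Cxcl9, an interferon-induced chemokine for Cxcr3 on T cells, averaged 14.3 ± 12.5 FPKM in NEMOIEC-KO and 0.0741 ± 0.042 in Nemofl/fl (4.12, adjusted p = 0.000171), and Cxcl10, of the same kind, 16.0 ± 11.6 and 1.46 ± 0.994 (2.73, adjusted p = 0.00233). The lower 2 were the epithelial gut chemokines Ccl28 (26.7 ± 5.5 against 39.7 ± 10.8 FPKM, -0.55, adjusted p = 0.0212) and Ccl25 (3.89 ± 0.708 against 4.99 ± 0.661, -0.33, adjusted p = 0.0422). The groups overlapped for Cxcl10, Ccl28 and Ccl25, and not for Cxcl9. Within library code K002000081 Cxcl9 (4.30, adjusted p = 0.00189) and Cxcl10 (2.79, 0.0215) passed, and Ccl28 (-0.60, 0.0982) and Ccl25 (-0.44, 0.0628) did not.

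Against NEMOIEC-KO, the lists had 3 genes higher and 12 lower of 58 in the Il12b-/- group and 1 higher and 11 lower in the Il12a-/- group. Of all genes, 19.9% passed and 5.94% were lower in the Il12b-/- group, and 9.61% and 4.00% in the Il12a-/- group. Homing chemokines and receptors gave 7 of the lower genes in each. Cxcl9 averaged 0.508 ± 0.541 FPKM in libraries labelled Il12b-/- (-3.44, adjusted p = 0.0013) and 1.06 ± 1.08 in those labelled Il12a-/- (-2.90, adjusted p = 0.0121). Cxcl10 averaged 1.68 ± 1.14 (-2.59, adjusted p = 0.00546) and 2.44 ± 1.8 FPKM (-2.19, adjusted p = 0.0292). The integrin chains Itgax and Itga6 were lower in both groups: Itgax, of dendritic cells and macrophages, by -0.73 and -0.79 (adjusted p = 0.0316 and 0.0365), and the laminin receptor chain Itga6 by -0.71 and -0.74 (0.00914 and 0.0154). Cdh1 was lower by -0.42 in both (adjusted p = 0.00299 and 0.0092), and Cd34 was higher by 0.94 in the Il12b-/- group (21.9 ± 5.01 FPKM, adjusted p = 0.00285). Within library code K002000079, which has 2 NEMOIEC-KO libraries, the Il12b-/- group gave Cxcl9 at -3.18 (adjusted p = 0.0723), Cxcl10 at -2.50 (0.0758), Itgax at -0.71 (0.217), Itga6 at -0.61 (0.202), Cd34 at 0.90 (0.0828) and Cdh1 at -0.47 (0.039), so that Cdh1 alone of these passed. The Il12a-/- group gave Cxcl9 at -2.64 (0.209), Cxcl10 at -2.10 (0.212), Itgax at -0.78 (0.269), Itga6 at -0.64 (0.265) and Cdh1 at -0.47 (0.115), and none passed.

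In the Il23a-/- group 0 of 58 passed against NEMOIEC-KO (limma), where 0.0830% of all genes passed. An unadjusted p below 0.05 was found for 4 of them (Cxcr6, Ccl20, F11r and Alcam) and for 10.5% of all genes. Cxcr6, a chemokine receptor of T cells, read 0.757 ± 0.344 FPKM against 1.74 ± 0.765 in NEMOIEC-KO, a log2 fold change of -0.81 (adjusted p = 0.137). F11r, a junctional adhesion molecule, differed by -0.21 (adjusted p = 0.267) and Alcam, an adhesion molecule of the immunoglobulin type, by -0.51 (adjusted p = 0.378). In the lists with no gene below that p, the smallest p belonged to Fut4 (0.30, adjusted p = 0.622) and Chst4 (0.32, 0.674) among selectin ligand genes, and to Itgb1 (-0.21, 0.657) and Itga6 (-0.26, 0.689) among integrins. The chemokine Ccl20, a Th17-associated attractant of Ccr6 cells, read 1.26 ± 0.355 FPKM there against 3.19 ± 0.836 in NEMOIEC-KO. Its log2 fold change was -1.07 (adjusted p = 0.156).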

How the data were processed

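Poly(A) RNA of 25 distal colon samples was sequenced as paired-end reads from a strand-marking kit, per the labels' protocols. The deposited values are the authors' FPKM per gene and library. The submitters' processing notes name the build GRCm38 and the tools DESeq2 1.10.1, Cufflinks 2.1.1 and TopHat2 2.0.10. The role of each tool, the annotation release and the counting strand are not given in the sources used here. Absolute depth is unknown, so no counting interval or detection limit is given. Of 49452 identifiers, 49109 matched a symbol and a position in a GRCm38 annotation (GENCODE).

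Genes with at least 0.2 FPKM in 5 libraries (19266) were fitted on log2(FPKM + 0.5) with limma 3.58.1 (R 4.3.3), 1 mean per genotype over all 25 libraries, 20 residual degrees of freedom and a trend in the prior variance. Tests were two-sided, with Benjamini-Hochberg adjustment over all genes tested, and an adjusted p below 0.05 was called. The 10 comparisons share libraries. Relative levels (44 tests) were compared with the exact permutation test. The fit was tested on simulated data with independent noise for each gene and library. That simulation held no effect of library code, sex or tissue composition, so it does not bear on them. Replicate numbers were not used as pairs.

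The members, the marker and pathway lists and the tests were chosen with earlier results of these data known. Of each pathway list, the named genes were the 2 with the largest change in each direction past the threshold or, where none passed, the 2 with the smallest p, and for each member the 3 genes most correlated with it. Alternatives were other pseudocounts (0.1 and 1), filters, scalings, covariates, groups and replicates left out. The smooth muscle and endothelium scores are means of log2(FPKM + 0.5) over the marker lists. 1 of the promoter motifs searched is not reported here.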

Additional observations from a re-analysis of the deposited data

Results flagged for a closer look

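Of 45 sets of 5 values (9 genes in 5 genotypes), 2 held a library that stood apart, by a gap to its nearest neighbour of more than 0.71 of the whole range. Chance alone gives about 1 in 20 such sets. Madcam1 in NEMOIEC-KO replicate 3 was 11.8 FPKM, where the other 4 libraries lay between 2.01 and 4.51 (gap over range 0.744). Ackr1 in replicate 5 of the libraries labelled Il12a-/- was 6.59 FPKM, where the others lay between 3.8 and 4.59 (gap over range 0.718). The Madcam1 difference between NEMOIEC-KO and Nemofl/fl was 1.39 on the log2 scale with that library and 1.06 without it (limma, adjusted p = 0.017 and 0.0664).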

How the results depend on the processing

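No difference of a called member changed sign under the alternatives run. The number of members past the threshold between NEMOIEC-KO and Nemofl/fl was 5, and 2 (Itgae and Itgb7) with the smooth muscle score and 6 (Selp added) with the endothelium score as a covariate. Leaving out 1 library at a time it ranged from 3 to 5. For Il12b-/- against NEMOIEC-KO it was 1, and 0 with a filter of 1 FPKM (which removes Itgae from the test), 0 with the library code as a covariate, 0 within 1 library code, 3 with the endothelium score as a covariate, an alternative chosen after seeing the data, and 1 to 3 leaving out libraries. For Il12a-/- against NEMOIEC-KO it was 1, and 0 with the 1 FPKM filter, with only the 2 groups in the fit, with the library code, within 1 code and with the smooth muscle score, and 0 to 1 leaving out libraries. For Il12a-/- against Nemofl/fl it was 1, and 0 with pseudocount 1, no filter, the library code or sex, 3 with only the 2 groups, 2 with the endothelium score, and 0 to 1 leaving out libraries. For Il23a-/- against Nemofl/fl it was 4, and 0 with the library code, smooth muscle score or sex, 6 (Selp and Itgae added) with the endothelium score, and 2 to 5 leaving out libraries. The other comparisons gave 0 throughout. Of the relative levels 7 passed, and 0 to 9 leaving out libraries. The cause of these changes was not tested. Over all genes, 6202 passed between NEMOIEC-KO and Nemofl/fl and 2191 with the smooth muscle score. For Il12b-/- against NEMOIEC-KO 3833 passed, 1420 with the library code and 719 within 1 code. For Il12a-/- 1851 passed, and 177 and 31. For Il23a-/- against Nemofl/fl 5686 passed, 1591 with the library code and 450 with the smooth muscle score. Same-numbered libraries of different genotypes did not vary together (median correlation 0.0071 over 50 pairs, and 0.00856 over 200 pairs of different number), so the numbers give no pairing. With the replicate number as a block, Vcam1 did not pass between NEMOIEC-KO and Nemofl/fl (0.70, adjusted p = 0.0564), which left 4 members. Sele lies below the filter in all libraries and was not tested.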
